A study of Mus musculus with 4 samples.

Results

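The genes described here encode the constitutive proteasome, the protease that degrades proteins tagged with ubiquitin. They were chosen by name, as every gene whose symbol in the platform annotation begins with Psma, Psmb, Psmc, Psmd, Psme, Psmf or Psmg and a number. The interferon-inducible catalytic subunits Psmb8, Psmb9 and Psmb10 and pseudogenes were left out. The rule matched 42 of the 16593 genes named on the array, through 63 probes. Of these, 40 encode subunits, activators or assembly chaperones. The other two, Psmc3ip and Psme3ip1, encode proteins named for their binding to a subunit and are described apart. Each gene was represented by its brightest probe, taken as the probe with the highest mean deposited signal over the 4 arrays. Psma8, Psmb11, Psmd3, Psmf1 and Psmg4 had no probe in the annotation used here.

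The RNA came from regulatory T cells of C57Bl/6 mice aged 8 to 12 weeks, isolated from spleen by sorting for a green fluorescent reporter of Foxp3. All 4 arrays were run on 1 slide. All cells were activated overnight with anti-CD3. The isotype group (2 arrays) also received rat IgG, and the OX86 group (2 arrays) received OX86, an antibody that activates OX40, a costimulatory receptor. Replicate numbers are given in the labels, but whether they stand for separate cultures or animals is not, and the p-values therefore cover the spread of these 4 arrays alone, which may be technical. In bulk RNA, fewer cells of a type and less RNA per cell cannot be told apart.

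The proteasome consists of a barrel-shaped core and of caps that feed it. The alpha ring gates the core, the beta ring holds the proteolytic sites, and the ATPases of the cap unfold the substrate. The other cap subunits recognise and remove ubiquitin. When cells are exposed to interferon, inducible catalytic subunits replace the constitutive ones, and a different cap, built from the products of Psme1 and Psme2, is made. Despite the name given to the set, Psme1 and Psme2 are thus themselves interferon-regulated.

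All 7 regulatory T-cell markers (Foxp3, Il2ra, Ctla4, Ikzf2, Tnfrsf18, Cd3e and Cd4) were detected on all 4 arrays. The arrays hold no other cell population for comparison, so this detection alone does not establish the label of the cells. Between 45.9% and 53.2% of 25697 probes were detected per array at a detection p under 0.05. Isotype 2 stood apart. It had the fewest detected probes, and the median deposited signal of the 42 genes was 996 on that array, against 1674 to 2252 on the others. After normalization its correlations with the other arrays over tested probes were 0.968 to 0.972, against 0.981 to 0.985 for pairs without it, a description across probes that are not independent replicates. Where leaving out isotype 2 turned the sign of a gene's change, the value without it is given beside the main one. The B-cell markers Cd79a, Cd79b, Ms4a1 and Cd22, the 4 of 5 fixed with a probe, had a log2 summed signal of 8.15 and 8.38 with isotype against 8.40 and 8.28 with OX86, which overlapped. Of the 3 tested, Ms4a1 alone had separate groups, at 5.79 and 5.15 with isotype against 6.38 and 6.18 with OX86. Of the 5 myeloid markers with a probe, 0 were detected on 2 or more arrays, Itgam and Itgax on none. Of the 5 markers of NK and CD8 T cells, Cd8b1 and Klrd1 were detected on all 4 arrays and tested. Cd8a, Ncr1 and Klrb1c were detected on no array. Cd8b1 read 9.57 and 9.79 with isotype against 9.61 and 9.54 with OX86. The log2 summed signal of the 5 markers was 9.87 and 10.10 with isotype against 9.94 and 9.91 with OX86. Of the 2 erythroid markers with a probe, Hba-a1 was detected on all 4 arrays and Alas2 on none. Together they had 10.73 and 9.33 on that scale with isotype against 10.14 and 9.22 with OX86. The part of other cells in the results was not tested.

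Log2 changes of the proteasome genes with OX86 ranged from -0.23 for Psmb7 to 0.84 for Psmd9. A probe was tested where it was detected on at least 2 of the 4 arrays, and 40 of the 42 genes passed this filter, 38 of them being detected on all 4 arrays. Over the 40 tested genes the median log2 change (OX86 minus isotype) was 0.04, against 0.01 over all 13338 tested probes. The mean was higher with OX86 for 23 genes and lower for 17. With arrays scaled to a common median in place of quantile normalization the split was 34 to 6, a setting in which the median of all tested probes itself moved to 0.12, with 71.1% of them higher. Past the threshold were 0 of 40 genes in limma with Benjamini-Hochberg adjustment over all tested probes, against 0% of all tested probes, and the adjusted p of each gene was 0.9999.

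For 36 of the 40 tested genes the 95% interval lay between log2 changes of -1 and 1, so that a 2-fold change lay outside it. The exceptions were Psmd1, Psmd9, Psmd2 and Psmc3ip. The median size of a change was 0.12, against 0.15 over all tested probes, and the median standard error was 0.20, against 0.23. Signals lie on the log2 scale of each probe, so levels of different genes are not compared.

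**Figure D1:**
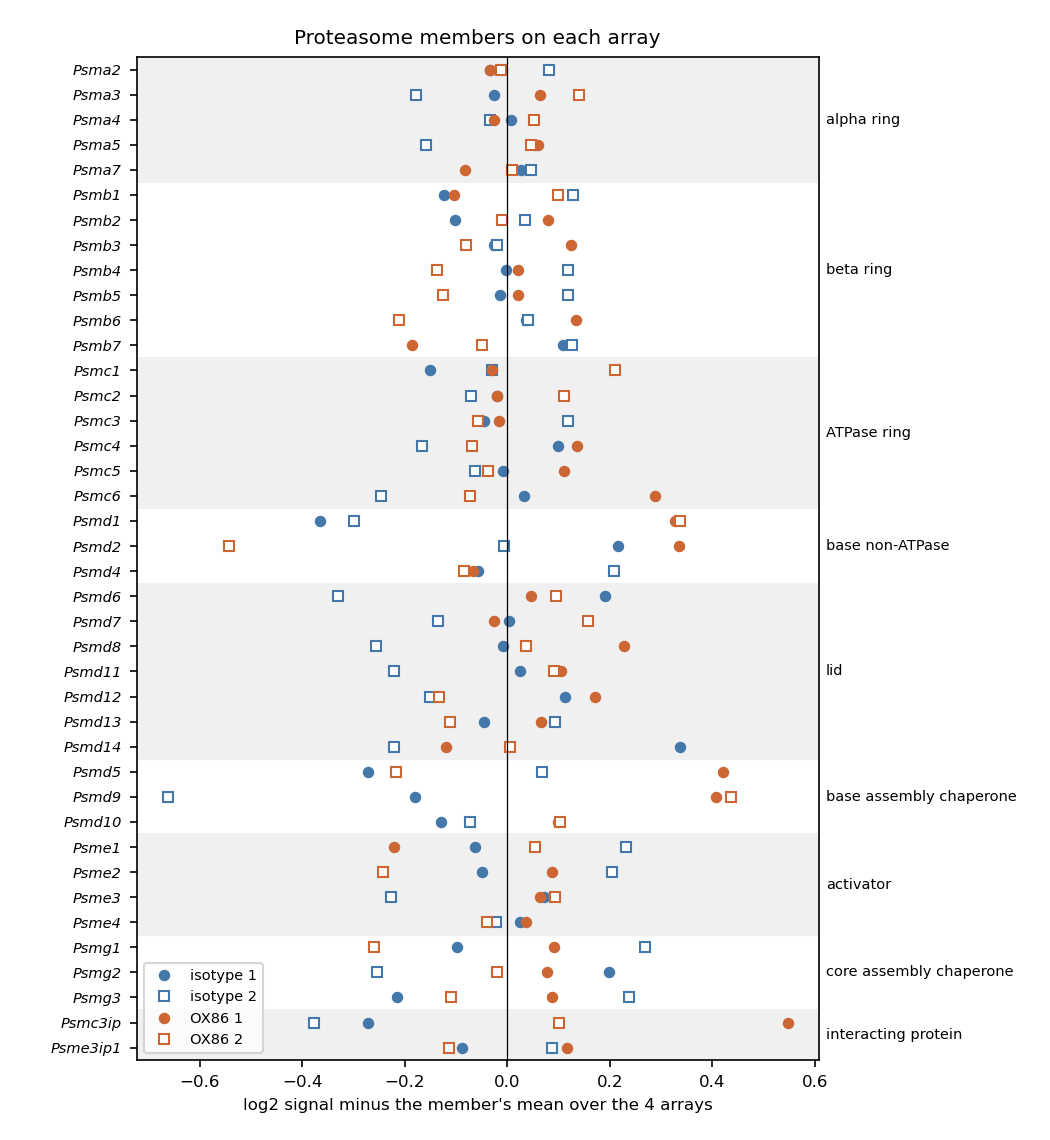
Normalized log2 signal of each tested gene on the 4 arrays, as the difference from that gene's mean over the arrays (horizontal axis), with genes in rows by role. Circles are replicate 1 and open squares replicate 2, isotype in blue and OX86 in orange. Psmd1 and Psmd9 are the subunit or chaperone genes with the widest gap between both OX86 and both isotype arrays. Isotype 2 is the lowest array for 6 of the 7 lid genes and for 17 of all 40 genes shown.

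At an unadjusted p under 0.05 in limma there were 3 genes, Psmd9, Psmd1 and Psmc3ip, all with the higher mean in the OX86 group. Among all tested probes 3.33% reached this p in either direction and 1.73% in the higher direction, while in the lower direction 0 genes reached it, against 1.6% of probes. In 7 genes both OX86 arrays lay above both isotype arrays, and in 3 they lay below. The corresponding shares of all tested probes were 13.9% and 13.1%, or 26.9% in either direction, and the 10 genes of 40 are near that background.

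Promoter sequences were examined because genes of constitutive proteasome subunits are known targets of the transcription factor encoded by Nfe2l1. This factor drives new proteasome synthesis when the protease is inhibited and binds antioxidant response elements. In windows from 250 bases before to 50 bases after the annotated start (RefSeq, GRCm38.p6), 36 of the 42 genes were matched. The element core TGACNNNGC, searched on both strands, occurred in 6 of them (16.7%), against 14% of 27025 genes with a window. The 6 stretches are shown because they are the promoters in the set that hold these letters. Capitals mark the match, which appears as its reverse complement in Psmc6, Psmd12 and Psme4.
Psmb5: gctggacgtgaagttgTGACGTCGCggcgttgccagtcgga
Psmb6: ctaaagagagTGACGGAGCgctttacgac
Psmc6: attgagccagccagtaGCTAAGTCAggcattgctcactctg
Psmd9: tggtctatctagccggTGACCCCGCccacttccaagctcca
Psmd12: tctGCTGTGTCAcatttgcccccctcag
Psme4: cgctgcggctGCAGCGTCAccagaagagc
They lie at chr14:54618018-54618058 (minus strand) for Psmb5, chr11:70525338-70525366 for Psmb6, chr14:45329581-45329621 for Psmc6, chr5:123228143-123228183 for Psmd9, chr11:107479278-107479305 for Psmd12 and chr11:30771758-30771786 for Psme4, all of these but the first on the plus strand. The match begins 47, 9, 227, 31, 247 and 7 bases before the annotated start in the same order.

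The genes with this core did not share a direction. Log2 changes were -0.10 for Psmb5, -0.08 for Psmb6, 0.21 for Psmc6, 0.84 for Psmd9, 0.04 for Psmd12 and -0.00 for Psme4, and 3 had the higher mean with OX86 and 3 the lower. Nfe2l1 itself read 10.52 and 10.41 with isotype against 10.54 and 10.75 with OX86, a log2 change of 0.18 (95% interval -0.31 to 0.68). Its OX86 arrays both lay above its isotype arrays, by a margin smaller than the difference between the OX86 arrays.

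Of 6 motifs searched, the one with the highest ratio of its share to that among all genes was CCGGAAGT, the sequence bound by ETS transcription factors. It occurred in 9 of the 36 genes with a window (25%), against 4.31% of all 27025 genes with a window. A gene was counted if any of its windows held the motif. Those 27025 genes were not limited to genes detected on these arrays, so the comparison does not show a trait particular to proteasome genes. It was singled out after the shares were seen. The other motifs were TGANNNNGC, which includes TGACNNNGC, in 58.3% against 45%, GGGCGG in 61.1% against 38.2%, CCAAT in 38.9% against 41.1% and CACGTG in 11.1% against 8.09%. Both strands were searched for each. The stretches of 3 of the 9 genes are shown, and those of the others are not. The 3 had the highest log2 changes among the 8 tested, at 0.18 for Psmc1, 0.14 for Psmd6 and 0.16 for Psme3. They thus do not represent the changes of the whole group. The match is in capitals, as its reverse complement in Psmc1 and Psme3.
Psmc1: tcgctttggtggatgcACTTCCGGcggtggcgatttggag
Psmd6: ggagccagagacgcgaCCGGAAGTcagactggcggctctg
Psme3: ctgtgacgcaACTTCCGGcgtgagcggc
They lie at chr12:100110157-100110196 (plus strand), chr14:14120967-14121006 (minus strand) and chr11:101316204-101316231 (plus strand). The 8 tested genes with this motif had log2 changes from -0.05 to 0.18, with 5 higher and 3 lower in mean with OX86.

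The alpha ring, which gates the core, had log2 changes from -0.07 to 0.20. Of its 7 genes 5 were tested, 3 with the higher mean in the OX86 group and 2 with the lower, and the median log2 change was 0.03. Psma3 had the highest change of the ring. It read 13.50 and 13.35 with isotype against 13.59 and 13.67 with OX86, a log2 change of 0.20 (95% interval -0.28 to 0.69), with 0.13 when isotype 2 was left out. Both OX86 arrays lay above both isotype arrays, by less than the difference between the isotype arrays. Psma7 had the lowest, with 11.02 and 11.03 with isotype against 10.91 and 11 with OX86 and a change of -0.07 (-0.54 to 0.40). The OX86 arrays lay just below the isotype arrays there, and its other probe had -0.12. Psma2, Psma4 and Psma5 had changes of -0.05, 0.03 and 0.11. Without isotype 2 the sign turned for Psma2 (0.01) and Psma5 (-0.00).

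Psma1 and Psma6, which encode alpha subunits that every core contains, were detected on 0 of the 4 arrays. Each had a single probe, with deposited signals of 238 to 280 for Psma1 and 246 to 297 for Psma6, and the lowest detection p was 0.477 and 0.199. Both probes were thus not above background, so neither the level nor the change of these genes can be read from them. Each of the other alpha genes was detected on all 4 arrays.

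The beta ring was tested for all 7 genes, of which 2 had the higher mean with OX86 and 5 the lower, with a median log2 change of -0.08. Psmb5 encodes the chymotrypsin-like site. It read 9.57 and 9.70 with isotype and 9.60 and 9.46 with OX86, a change of -0.10 (95% interval -0.59 to 0.38). Psmb6, of the caspase-like site, read 11.64 on each isotype array and 11.73 and 11.39 with OX86, a change of -0.08 (-0.61 to 0.45). In both genes the OX86 arrays reached to either side of an isotype array. Psmb6 had 0.10 without OX86 2.

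Psmb7, of the trypsin-like site, had the lowest change of the core. Its brightest probe read 11.27 and 11.29 with isotype against 10.98 and 11.11 with OX86, a log2 change of -0.23 (95% interval -0.71 to 0.24). The groups did not overlap, with OX86 lower. Its other probes had 0.06 and 0.26, and the change was 0.03 when the 3 probes were averaged, so the direction depended on the probe. Psmb2 had the highest change of the ring, with 11.19 and 11.33 against 11.38 and 11.29 and a change of 0.07 (-0.41 to 0.55). The arrays of its groups overlapped. The non-catalytic subunits Psmb1, Psmb3 and Psmb4 had -0.00, 0.04 and -0.12, and Psmb1 had 0.12 without isotype 2.

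The inducible partners of the catalytic subunits were set beside them. Psmb8, which replaces Psmb5, read 8.67 and 9.34 with isotype against 9.32 and 9.20 with OX86, a log2 change of 0.25 (95% interval -0.43 to 0.93). Psmb9, which replaces Psmb6, read 11.20 and 11.58 against 11.13 and 11.40, a change of -0.12 (-0.70 to 0.45). Psmb10, which replaces Psmb7, read 10.25 and 10.78 against 10 and 10.44, a change of -0.29 (-0.98 to 0.39). The groups of each overlapped. Without isotype 2 the changes of Psmb8, Psmb9 and Psmb10 were 0.58, 0.06 and -0.03, so that array moved each of them by more than 1.5 times or turned its sign. The differences between these changes and those of the constitutive partners were not tested.

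**Figure D2:**
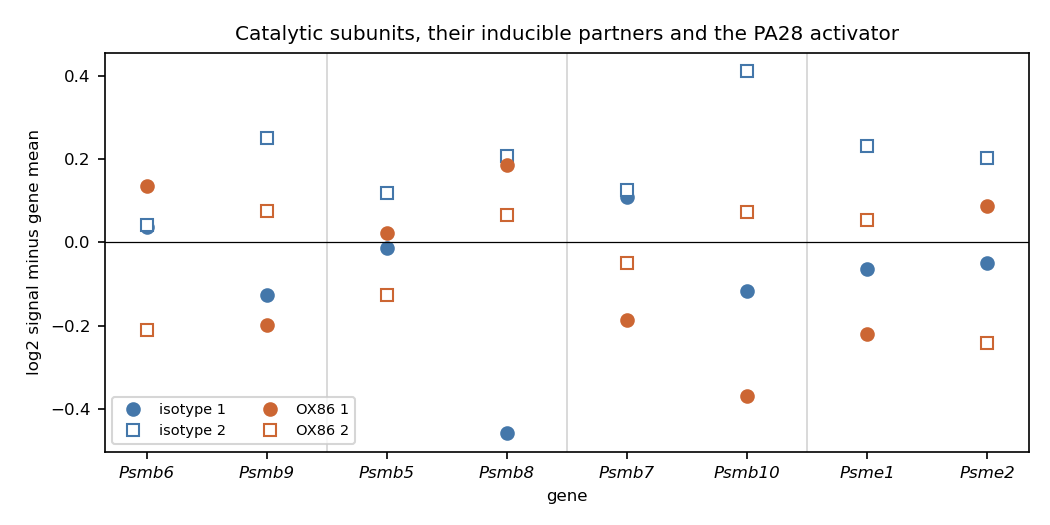
Log2 signal minus the gene's mean over the 4 arrays (vertical axis) for the catalytic subunit genes, each followed by its inducible partner, and for Psme1 and Psme2. Symbols are the arrays. Isotype 2 (open blue square) is the highest array for Psmb8, Psmb9, Psmb10, Psme1 and Psme2, each shown by its brightest probe; at the second probe of Psme1, not shown, it is the lowest.

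The ATPases, which form the unfolding motor of the cap, had the higher mean with OX86 in 5 of 6 genes, with a median log2 change of 0.08. Psmc6 had the highest change. It read 6.29 and 6.01 with isotype and 6.55 and 6.19 with OX86, a change of 0.21 (95% interval -0.36 to 0.79), and the groups overlapped. It was detected on 3 of the 4 arrays, isotype 2 being the exception, and the change was 0.08 without isotype 2 and 0.05 without background correction. Psmc3 had the lower mean, at 10.57 and 10.74 against 10.60 and 10.56, a change of -0.07 (-0.55 to 0.41) with overlapping groups. Psmc1, Psmc2, Psmc4 and Psmc5 had 0.18, 0.09, 0.07 and 0.07. Without isotype 2 the change of Psmc3 was 0.01 and that of Psmc4 -0.06, so which ATPase was lower depended on that array. The groups separated in 0 of the 6 ATPases, against 26.9% of all tested probes.

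The base of the cap held the subunit gene with the smallest p. Psmd1, which encodes a large scaffold subunit of the base, read 7.18 and 7.25 with isotype against 7.87 and 7.89 with OX86. Both OX86 arrays lay above both isotype arrays, and arrays of a group differed by far less than the groups. The log2 change was 0.66 (95% interval 0.20 to 1.13), with an unadjusted p = 0.0136 and an adjusted p = 0.9999 in limma, so it did not pass. Leaving out any single array gave 0.63 to 0.70. The deposited signals were 449 and 349 with isotype against 494 and 517 with OX86, not far above the array medians of 296 to 325, and without background correction the change was 0.27. Psmd1 had a single probe.

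Psmd2 and Psmd4, the other tested base subunits that are not ATPases, had lower means with OX86. Psmd2, a docking subunit for proteins that deliver ubiquitin conjugates, read 6.71 and 6.48 against 6.83 and 5.95, a log2 change of -0.21 (95% interval -1.02 to 0.60). Its OX86 arrays lay on either side of the isotype arrays, the change was 0.23 without OX86 2, and its other probe had 0.32. The signal of Psmd2 was close to background, with deposited values of 315 to 393 at the brightest probe. Its other probe was detected on only 2 of the 4 arrays. Psmd4, a ubiquitin receptor, read 12.47 and 12.74 against 12.46 and 12.45, a change of -0.15 (-0.65 to 0.35), and -0.02 without isotype 2.

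The assembly chaperones of the base all had the higher mean with OX86. Psmd9 had the highest change in the main setting, with 6.19 and 5.71 with isotype against 6.77 and 6.80 with OX86. Both OX86 arrays lay above both isotype arrays, and the OX86 arrays lay closer to each other than the isotype arrays did. The log2 change was 0.84 (95% interval 0.26 to 1.43), with an unadjusted p = 0.0129 and an adjusted p = 0.9999 in limma. Its signal was close to background. It was not detected on isotype 2, and the change was 0.60 without isotype 2 and 0.20 without background correction, where its unadjusted p was 0.0757 in limma. In both of these settings, and in the authors' processed values (0.21 against 0.28), the change of Psmd1 was higher than that of Psmd9. The second probe had 0.71 with overlapping groups.

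Psmd10 encodes a chaperone of the ATPases known as an oncoprotein in liver cancer. It read 10.23 and 10.28 with isotype and 10.45 and 10.46 with OX86, a log2 change of 0.20 (95% interval -0.26 to 0.67). Its groups did not overlap and arrays of a group differed by less than the groups, while its other probes had 0.15 and -0.14. Psmd5 had a change of 0.20 (-0.50 to 0.91), with -0.12 without OX86 1.

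The lid, which removes ubiquitin chains from the substrate, had the higher mean with OX86 in 5 of 7 genes, with a median log2 change of 0.13. Psmd8 had the highest change, with 10.63 and 10.38 with isotype against 10.86 and 10.67 with OX86. Its OX86 arrays lay above both isotype arrays by a margin smaller than the spread within either group. The change was 0.26 (95% interval -0.25 to 0.78) and 0.14 without isotype 2. Psmd14, the deubiquitinating enzyme of the lid, had the lowest, with 10.53 and 9.97 against 10.07 and 10.19 and a change of -0.12 (-0.74 to 0.51). The isotype arrays lay on either side of the OX86 arrays, and the change was 0.16 without isotype 1 and -0.40 without isotype 2. Psmd6, Psmd7, Psmd11, Psmd12 and Psmd13 had 0.14, 0.13, 0.20, 0.04 and -0.05. The second tested probe of Psmd7 had -0.00. That of Psmd11 had 0.70 (95% interval -0.23 to 1.63) and that of Psmd12 0.39 (-0.32 to 1.10). For Psmd11 that probe read 8.13 and 7.05 on the isotype arrays.

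Isotype 2 was the lowest array for 6 of the 7 lid genes, against 33.1% of all tested probes. It was the lowest for 17 of all 40 tested genes and for 0 of the 7 beta ring genes. The lid was singled out for this count after the values were seen. Without isotype 2 the changes of Psmd6 and Psmd12 were -0.12 and -0.09, that of Psmd13 was 0.02 and that of Psmd11 was 0.07. These come from a fit with a lone isotype array.

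The activators cap the core in place of the ATPase cap. Psme1 and Psme2 encode the subunits of the interferon-regulated activator. Psme1 read 12.19 and 12.48 with isotype against 12.03 and 12.31 with OX86, a log2 change of -0.17 (95% interval -0.72 to 0.38), while the second probe gave 0.13. Psme2 read 8.75 and 9.0 against 8.88 and 8.55, a change of -0.15 (-0.71 to 0.40). In both genes the groups overlapped, isotype 2 was the highest array, and the changes without it were -0.02 and -0.03.

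At the brightest probe, isotype 2 was the highest array for 5 interferon-regulated genes of the proteasome, Psmb8, Psmb9, Psmb10, Psme1 and Psme2, against 30.6% of all tested probes. The second probe of Psme1 went the other way, with 11.29 and 11.17 with isotype against 11.35 and 11.38 with OX86, so that isotype 2 was its lowest array and its groups did not overlap. This grouping was chosen after the values were seen. At the brightest probes, OX86 2 was the next highest array for Psmb9, Psmb10 and Psme1, and OX86 1 for Psmb8 and Psme2. For Psmb8 the margin was narrow, with 9.34 on isotype 2 against 9.32 on OX86 1. In Psmb9, Psmb10 and Psme1 the OX86 array lay below the isotype array of the same number for each number. In Psmb8 and Psme2 the direction differed between the numbers. Psme3, of a nuclear activator, had the highest change of the activators, with 10.42 and 10.12 against 10.41 and 10.44 and a change of 0.16 (95% interval -0.36 to 0.67), or 0.01 without isotype 2. Its OX86 arrays lay beside isotype 1, and isotype 2 alone was lower. Psme4, of another nuclear activator, had -0.00 at its brightest probe and -0.44 at its other probe. The other probe was close to background, with deposited signals of 310 to 401, against 1224 to 2602 at the brightest.

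The chaperones that assemble the core had 1 higher and 2 lower means among 3 tested genes, with a median log2 change of -0.02. Psmg1 and Psmg2 encode partners in building the alpha ring. Psmg1 read 7.94 and 8.31 with isotype and 8.13 and 7.78 with OX86, a change of -0.17 (95% interval -0.77 to 0.43), and 0.01 without isotype 2. Psmg2 read 9.28 and 8.83 against 9.16 and 9.06, a change of 0.06 (-0.52 to 0.63), and -0.17 without isotype 2. The OX86 arrays of Psmg2 lay between its isotype arrays. Psmg3 had -0.02, and 0.20 without isotype 2.

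**Figure D3:**
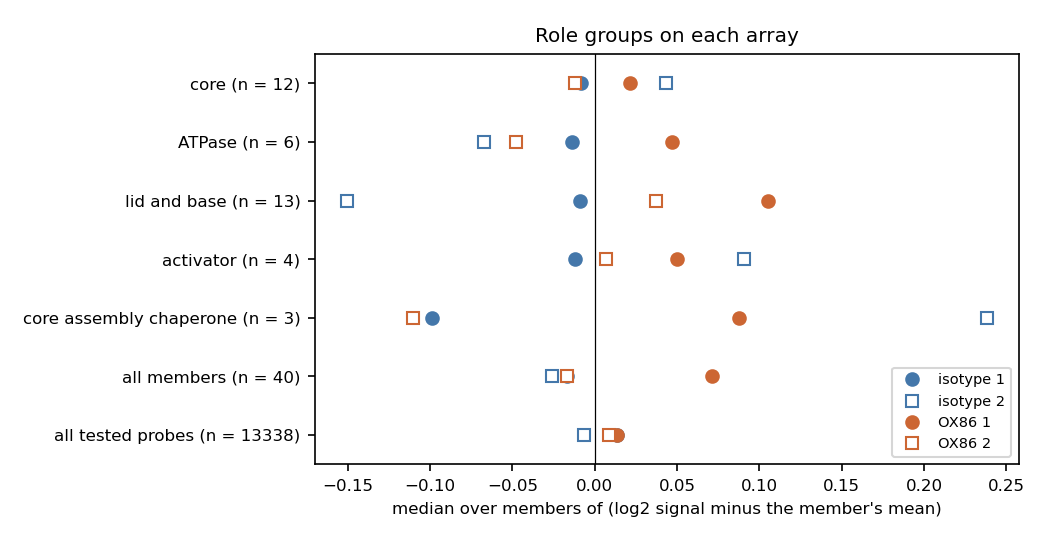
Median, over the tested genes of each role group, of the log2 signal minus the gene's mean over the 4 arrays (horizontal axis), with 1 symbol per array. The medians of the lid and base genes lie at -0.15 on isotype 2 and 0.11 on OX86 1, while those of the 12 core genes lie between -0.01 and 0.04.

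Set side by side, the role groups had median log2 changes of -0.03 for the core (12 tested genes), 0.08 for the ATPases (6), 0.14 for lid and base with its chaperones (13), -0.08 for the activators (4) and -0.02 for the core chaperones (3). The differences between groups were not tested. On the single arrays, the median deviation of lid and base genes was -0.01 and -0.15 with isotype against 0.11 and 0.04 with OX86. Both OX86 arrays lay above both isotype arrays in this group, with the distance from isotype 1 to OX86 2 smaller than that between the isotype arrays. Without isotype 2 the median change of lid and base was 0.06. Core genes had deviations of -0.01 and 0.04 with isotype against 0.02 and -0.01 with OX86, which overlapped.

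**Figure D4:**
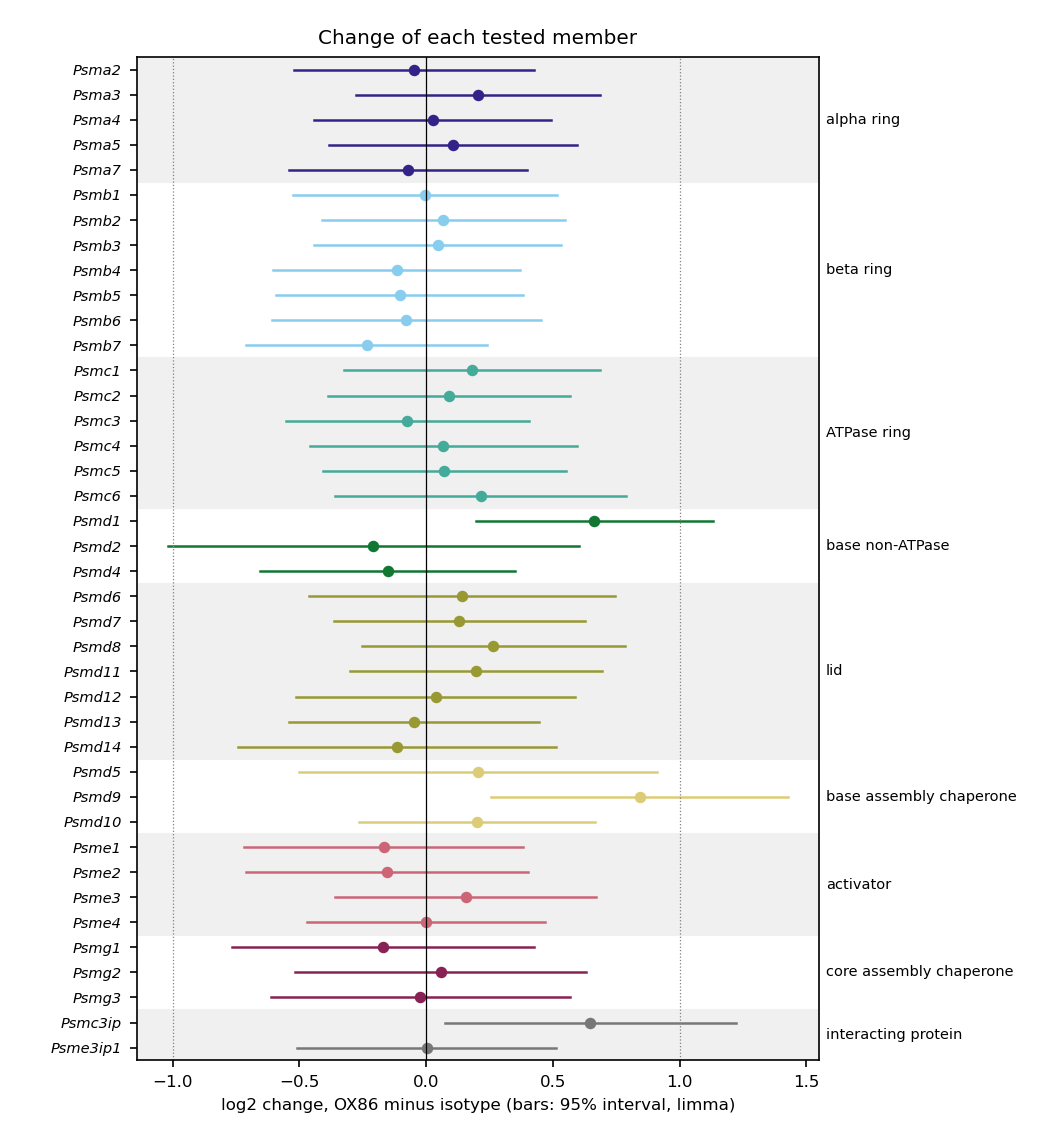
Log2 change, OX86 minus isotype, of the 40 tested genes by role (points) with 95% intervals from limma (bars). Dotted lines mark log2 changes of -1 and 1. The intervals of Psmd1, Psmd9 and Psmc3ip lie above 0, and none of the 40 genes passed after adjustment over all tested probes.

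The difference between the genes of the interacting proteins was not tested. Psmc3ip encodes a protein known for its role in homologous recombination during meiosis. It read 7.17 and 7.07 with isotype against 7.99 and 7.54 with OX86, and both OX86 arrays lay above both isotype arrays. The log2 change was 0.65 (95% interval 0.07 to 1.22), with an unadjusted p = 0.0332 and an adjusted p = 0.9999 in limma, and 0.25 without background correction. It was 0.42 without OX86 1. Psme3ip1 had 0.00 (-0.51 to 0.51) at its brightest probe. Its other probe had 0.17 (-0.30 to 0.64), with both OX86 arrays above both isotype arrays.

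Other genes that work with the proteasome were taken from a fixed list of cofactors, ubiquitin handling and downstream peptidases. Of 26 such genes with a probe, 21 were tested, 13 with the higher mean in the OX86 group and 8 with the lower, and their median log2 change was 0.06. Past the threshold were 0, against 0% of all tested probes, and 0 reached an unadjusted p under 0.05 in limma, against 3.33%. The groups did not overlap in 5 of the 21 genes, 4 higher and 1 lower, against 26.9% of all tested probes. Usp14, a deubiquitinase bound to the cap, had the smallest p. It read 8.03 and 7.55 with isotype and 8.10 and 8.21 with OX86, a change of 0.37 (95% interval -0.22 to 0.96), and 0.13 without isotype 2. Nrd1, a peptidase, read 11.82 and 11.83 against 11.67 and 11.46, a change of -0.26 (-0.74 to 0.23). The lid subunit gene Sem1 read 12.36 and 12.14 against 12.51 and 12.46, a change of 0.23 (-0.26 to 0.73), with 0.12 without isotype 2. Usp14, Nrd1 and Sem1 were among the 5 without overlap. Pomp, which matures the core, read 12.28 and 12.23 against 12.26 and 12.18, a change of -0.03 (-0.50 to 0.44).

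**Figure D5:**
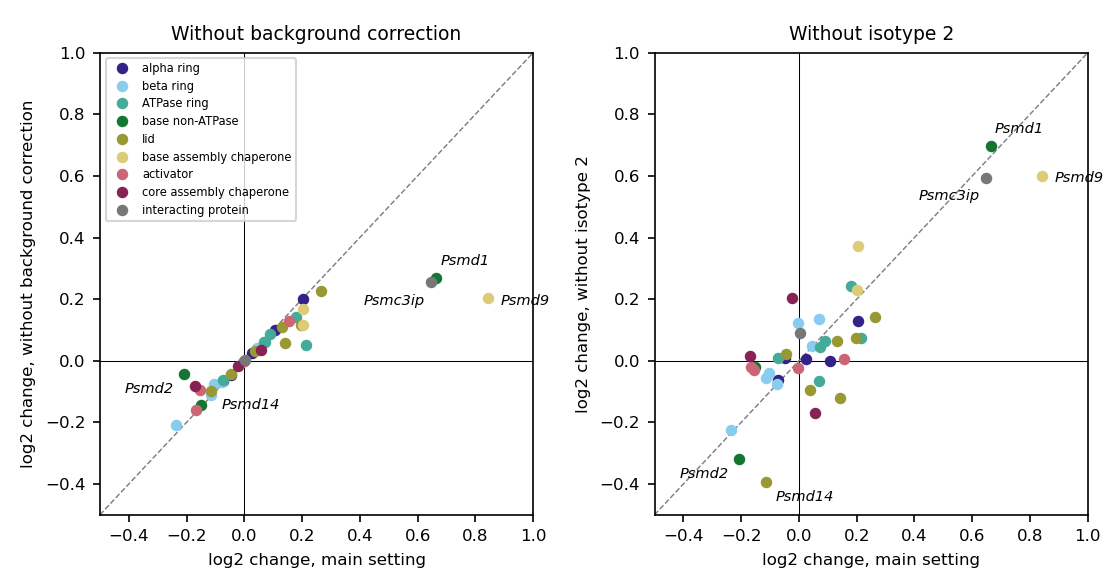
Log2 change of the 40 tested genes under the main setting (horizontal axis) against the change without background correction (left, vertical axis) and without isotype 2 (right, vertical axis). The dashed line marks equal values. Without background correction Psmd9, Psmd1 and Psmc3ip lie at 0.20, 0.27 and 0.25, far below the line, and without isotype 2 the sign of 11 genes turns.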

How the data were processed

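Total RNA from 4 samples had been amplified into biotinylated cRNA and hybridised to an Illumina bead array, per the labels' protocols. The authors deposited a linear signal intensity and a detection p-value for each of 25697 probes and array. The submitters' processing notes name BeadStudio without a version. A second deposited table held processed intensities of the same arrays and served as an alternative. Whether background had been subtracted before deposit is not given in the sources used here.

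Signals were corrected and quantile normalized with neqc (limma 3.58.1, R 4.3.3; offset 16, background inferred from the detection p-values) and taken to log2. Groups were compared with lmFit and eBayes, two-sided and without covariates, over 13338 probes detected at p under 0.05 on at least 2 of 4 arrays, with Benjamini-Hochberg adjustment and a threshold of 0.05. Residual and prior degrees of freedom were 2 and 3.68. Precision is limited by the number of arrays. The procedure was tested on data simulated for 2 against 2 arrays. It recovered 37.8% of 2-fold and 98.8% of 4-fold changes, with 12.4 false calls per draw. Changes smaller than 2-fold were not simulated.

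Gene names came from the platform annotation, which gave 23978 probes 1 symbol, 0 several and 1719 none. Of these, 23962 were found in RefSeq (GRCm38.p6) by Entrez number, with 0 symbols differing. Promoter windows were taken from RefSeq. Named with values on each array were the genes with the highest and lowest change of each role group, those with an unadjusted p under 0.05, those with separate groups and a change of 0.25 or more, Psmb5, Psmb6, Psmb7, Psme1 and Psme2, and from the list of cooperating genes the inducible subunits, Pomp, Nfe2l1 and the 4 with the smallest p. The members, lists and tests were chosen with earlier results of these data known. The arrays were not treated as pairs, since the labels do not say that a replicate number marks a shared animal or day. Deviations of same-numbered arrays from their group means had a correlation of 0.07 over tested probes. That value is an average over many probes and does not settle whether the arrays are paired, which was not tested.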

Additional observations from a re-analysis of the deposited data

How the results depend on the processing

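The count of members past the threshold was 0 in limma with Benjamini-Hochberg adjustment under each of the 12 alternatives. At an unadjusted p under 0.05 there were 3 members, 0 with median scaling and 0 to 2 when an array was left out. The median change of the members was 0.041, and it was 0.18 with median scaling, where that of all tested probes was 0.12, and -0.029 to 0.10 when an array was left out. With median scaling the medians were 0.12 (core), 0.21 (ATPases), 0.28 (lid and base), 0.054 (activators) and 0.12 (core chaperones, -0.022 in the main setting). The core median was 0.011 with probes averaged. When an array was left out the medians ran from -0.081 to 0.0024 (core), 0.016 to 0.12 (ATPases), -0.13 to 0.023 (activators) and -0.25 to 0.077 (core chaperones). The sign turned for 0 of 40 members in the authors' processed values and for 0 without background correction, and for 11 with median scaling. Leaving out an array turned the sign of 21 of 40 members and turned or moved the change of 36 by over 1.5 times; the arrays concerned are isotype 1 (3 signs turned), isotype 2 (11), OX86 1 (7) and OX86 2 (8). In those fits a lone array is assumed to vary like the other group. The sign of 15 members held under each alternative that gave them a value, Psmd1 and Psmd9 among them; Psmd9 and Psmc6 have none among probes detected on all 4 arrays. The cause of these shifts was not tested. With the replicate number as a block, 0 members passed and 3 had an unadjusted p under 0.05, as without it, and the probes at that p over all genes numbered 522 against 444. Signals near background, as for Psmd9, Psmd1, Psmd2 and Psmc6, limit what can be read from their changes.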
